A study of Homo sapiens with 32 samples.

Results

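A set of 37 genes of the integrated stress response and the unfolded protein response was followed in HGrC1 cells, an established non-luteinized human granulosa cell line. The genes were taken by symbol from the deposited expression tables, where all 37 were found among 18583 gene entries with values, and all 37 had enough counts to be tested in every comparison. HGrC1 cells had been grown from 4 separately frozen vials, and the cells of each vial had been divided between 4 treatments, namely vehicle (0.05% DMSO) and 0.01, 0.1 or 1 µM perfluorooctane sulfonate (PFOS), a persistent fluorinated surfactant. RNA was collected after 6 and after 12 weeks, which gave 8 groups of 4 libraries and 32 libraries in total. All groups, controls included, were kept in the same serum-containing medium and passaged throughout. Each group, exposed or not, is recorded with 0.05% DMSO, and a steroid was added to all of them. The sample labels name that steroid as estradiol and the methods of the study name it as testosterone. Each vial contributed 1 library to each group, so the vials are the replicates of a single cell line, and the 3 PFOS groups of a time were compared with the same 4 control libraries. Vials are numbered here by the replicate number in the labels, and equal numbers were taken as the same vial.

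The integrated stress response starts with kinases that phosphorylate the translation factor eIF2α, among them PERK (gene EIF2AK3), which senses unfolded protein in the endoplasmic reticulum (ER). General translation then falls while ATF4 is translated more, and ATF4 raises the genes of amino acid uptake and synthesis together with ATF3, DDIT3 (CHOP), TRIB3 and PPP1R15A (GADD34), the last of which brings a phosphatase to eIF2α and ends the response. The other arms of the unfolded protein response run through ATF6 and through IRE1 (gene ERN1), which splices XBP1 mRNA, and they raise ER chaperones such as HSPA5 (BiP). ATF3 is also a rapid-response gene that growth factor and stress kinase signaling can induce without ATF4. Gene-level RNA values show neither the translation of ATF4 nor the splicing of XBP1.

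Total counts lay between 17907067 and 18553355 per library. Of the granulosa cell markers, GATA4 (median 74.1 TPM, a level corrected for gene length and library size), WT1 (37.3 TPM) and AMH (13.5 TPM) were present, FOXL2 was low (0.635 TPM), and the aromatase gene CYP19A1 and AMHR2 had medians of 0 TPM, with at most 1 and 3 counts in any library. The medians of HSD17B1, INHBA, STAR, INHA and NR5A1 were 5.6, 3.9, 1.8, 1.5 and 0.06 TPM, and FSHR had no entry with values. Of 11 markers of other cell types found in the tables, 7 had medians of at most 1.07 TPM, namely PTPRC (leukocytes), PECAM1 and CDH5 (endothelium), EPCAM (epithelium), CYP17A1 (theca cells), DCN (stroma) and DDX4 (germ cells, at 0 in all libraries). The other 4 were expressed, namely the collagen gene COL1A1 (405 to 722 TPM over libraries), the zona pellucida gene ZP3 (22.7 to 35.0 TPM), the smooth muscle actin gene ACTA2 (13.4 to 49.6 TPM) and the macrophage marker CD68 (13.2 to 29.6 TPM), and edgeR called 0 of the markers in each PFOS comparison, with 0 to 2 at an unadjusted p under 0.05. Counts summed over 6 liver transcripts, such as ALB, were 0 to 1 in the 6-week libraries of the control and of 0.01 µM, whereas 0.1 µM gave 89 to 141 and 1 µM gave 88 to 115. At 12 weeks this sum was 81 to 919 in the control libraries, with 919 in vial 3, and 72 to 174 in the PFOS libraries.

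The 250 bases upstream of the start of 4 members are shown because these genes carry the differences described below, or, in the case of HSPA5, the contrast to them. They come from RefSeq on build GRCh38.p14, read 5′ to 3′ on the strand of the gene, with motif matches in capitals.
ATF3, chr1:212565157-212565406, plus strand: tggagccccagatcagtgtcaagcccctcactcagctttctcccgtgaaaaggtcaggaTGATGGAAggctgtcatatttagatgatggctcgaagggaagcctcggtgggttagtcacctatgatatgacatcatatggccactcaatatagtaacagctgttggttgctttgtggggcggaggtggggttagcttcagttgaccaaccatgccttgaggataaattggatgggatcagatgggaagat
PPP1R15A, chr19:48872171-48872420, plus strand: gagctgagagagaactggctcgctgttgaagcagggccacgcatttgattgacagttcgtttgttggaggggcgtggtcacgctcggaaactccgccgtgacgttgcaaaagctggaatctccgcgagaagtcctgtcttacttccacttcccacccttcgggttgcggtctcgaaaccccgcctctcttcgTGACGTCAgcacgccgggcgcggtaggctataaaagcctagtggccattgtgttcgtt
HERPUD1, chr16:56931892-56932141, plus strand: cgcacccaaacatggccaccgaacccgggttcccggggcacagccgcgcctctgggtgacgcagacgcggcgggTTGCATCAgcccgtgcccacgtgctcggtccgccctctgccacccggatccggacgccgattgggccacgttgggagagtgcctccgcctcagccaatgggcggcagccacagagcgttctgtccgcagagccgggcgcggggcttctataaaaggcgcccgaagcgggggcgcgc
HSPA5, chr9:125241344-125241593, minus strand: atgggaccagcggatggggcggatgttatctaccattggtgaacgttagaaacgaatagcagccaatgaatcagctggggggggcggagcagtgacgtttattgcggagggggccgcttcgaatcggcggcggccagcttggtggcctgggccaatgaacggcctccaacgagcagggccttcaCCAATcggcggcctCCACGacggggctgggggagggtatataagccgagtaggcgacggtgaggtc

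Matches to 4 motifs were counted on both strands of this window in 34 of the 37 members; PSPH, SHMT2 and SLC7A11 were not matched. The C/EBP-ATF element (TGATGNAA), which ATF4 heterodimers can bind, stood at position -191 of ATF3 and at position -176 of HERPUD1, on the opposite strand in the latter. It was found in 6 members (ASNS, ATF3, CEBPG, CHAC1, HERPUD1 and SLC1A5) and in 3.14% of all 35116 promoters. The cAMP response element (TGACGTCA) was found in PPP1R15A at position -58 and in no other member, and in 1.65% of all promoters. The ER stress element (CCAAT, 9 other bases and CCACG) was found in HSPA5 at position -66 and in CALR, CRELD2, HSP90B1, PDIA6 and XBP1, against 0.074% of all promoters. The unfolded protein response element (TGACGTGG) was found in 0 members and in 0.612% of all promoters. The promoter set used holds 2 starts of ATF3, and the window before the other one held none of the 4 motifs. Any further start of ATF3 was not searched, so its promoters were not fully surveyed. A match describes letters in a window, not a site in use. Only the spellings given were searched, so other forms of these elements were not counted. Members were counted as genes with a match before any annotated start, whereas the shares are of promoters.

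Between genes, levels in TPM differed widely. The ER lectin chaperone CALR was the most abundant member, with a median of 1662 TPM over the 32 libraries, followed by the ER chaperone HSP90B1 (763 TPM), ATF4 (600 TPM) and HSPA5 (349 TPM). PPP1R15A (210 TPM) and ATF3 (206 TPM) came close behind the oxidoreductase PDIA6 (264 TPM). The IRE1 gene ERN1 (3.92 TPM) and the secreted stress factor GDF15 (1.33 TPM, 7 to 26 counts) were the lowest. Of the 36 pairs of neighbors in this order, the ranges over libraries overlapped in 30. ATF3 had a highest-to-lowest ratio over libraries of 2.03, compared with 1.38 for ATF4, 1.25 for HSPA5 and 1.14 for CALR. Larger ratios were found for the asparagine synthetase gene ASNS (2.30), the cystine transporter gene SLC7A11 (2.33) and the low-count gene GDF15 (4.03).

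After 12 weeks of exposure to 0.1 µM PFOS, ATF3 and PPP1R15A were lower than in the control, whereas ATF4 and the ER chaperones did not pass edgeR's test. In vials 1 to 4, ATF3 was at 325, 289, 355 and 344 TPM in the control libraries. At 0.1 µM it was at 227, 179, 189 and 174 TPM. Every exposed library was below every control library, and the mean fell from 328 ± 29.1 to 193 ± 23.9 TPM (SD, n = 4), a change of -41.4%. The log2 fold change was -0.80 (SE 0.09), with an adjusted p of 0.000777 by edgeR's quasi-likelihood test with Benjamini-Hochberg adjustment over all 12742 genes tested.

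At 1 µM, ATF3 was at 259, 249, 210 and 249 TPM, again below every control library, with a log2 fold change of -0.50 (SE 0.09, edgeR adjusted p 0.0308). At 0.01 µM it was at 289, 247, 291 and 229 TPM, a range that overlapped the control, with a log2 fold change of -0.30 (SE 0.09, edgeR adjusted p 0.565). All 4 vials were lower than the control library of the same number at 0.1 µM and at 1 µM. The 3 values do not follow the order of the concentrations, since the level was lowest at 0.1 µM.

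PPP1R15A, the phosphatase subunit that reverses eIF2α phosphorylation, was at 279, 274, 291 and 257 TPM in the 12-week control libraries. It was at 234, 203, 210 and 184 TPM at 0.1 µM and at 219, 196, 232 and 221 TPM at 1 µM. Neither exposed group overlapped the control. The log2 fold changes were -0.44 (SE 0.07, edgeR adjusted p 0.00398) at 0.1 µM and -0.41 (SE 0.07, edgeR adjusted p 0.0115) at 1 µM, and -0.12 (SE 0.07, edgeR adjusted p 0.673) at 0.01 µM. HERPUD1, a membrane component of ER-associated degradation, was the only other member called at 12 weeks. It was at 61.2, 58.0, 59.7 and 58.4 TPM in the control libraries and at 54.6, 50.6, 52.9 and 52.3 TPM at 1 µM, with a log2 fold change of -0.24 (SE 0.05, edgeR adjusted p 0.0426).

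Counted over the set at 12 weeks, 2 of 37 members passed at 0.1 µM (ATF3 and PPP1R15A), where 1.07% of all genes tested passed, and 3 of 37 passed at 1 µM, where 0.220% did. All of these calls were lower. At 0.01 µM edgeR called 0 members and 0% of all genes, while 1 member and 1080 genes had an unadjusted p under 0.05, and DESeq2 and limma also called 0 members and 0 genes. The median log2 change of the members was -0.01 at 0.1 µM and -0.06 at 1 µM, compared with -0.00 at both for all genes tested, and the calls were made on single genes and not on the set. The ATF3 call at 0.1 µM held under 13 of 13 alternative analyses, with an adjusted p of at most 0.0451. The change was smaller than 2-fold, the threshold of the study's differential expression calls. For its benchmark concentrations the study used a trend test over concentrations with a lower fold threshold. Among genes falling at 12 weeks in that selection, it listed a pathway of ATF4-activated genes under ER stress as enriched. That trend test was not run here. The PPP1R15A call at 0.1 µM was lost without vial 3 (adjusted p 0.122, edgeR), where the log2 fold change was -0.40.

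The 3 calls at 1 µM were each lost under several alternatives. ATF3 was lost with limma (adjusted p 0.0704), with no filter on low counts (0.0541, edgeR) and without vial 2, 3 or 4 (0.0564, 0.317 and 0.230, edgeR). PPP1R15A was lost with limma (adjusted p 0.109) and without vial 2 or 3 (0.180 and 0.192, edgeR). HERPUD1 was lost with limma (adjusted p 0.207), with no filter (0.0532, edgeR) and without vial 2, 3 or 4 (0.191 to 0.400, edgeR). Without the single control library of vial 3 that carried the 919 liver counts, the log2 fold changes were -0.45 for ATF3, -0.37 for PPP1R15A and -0.22 for HERPUD1, with edgeR adjusted p of 0.139, 0.0679 and 0.195.

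**Figure D1:**
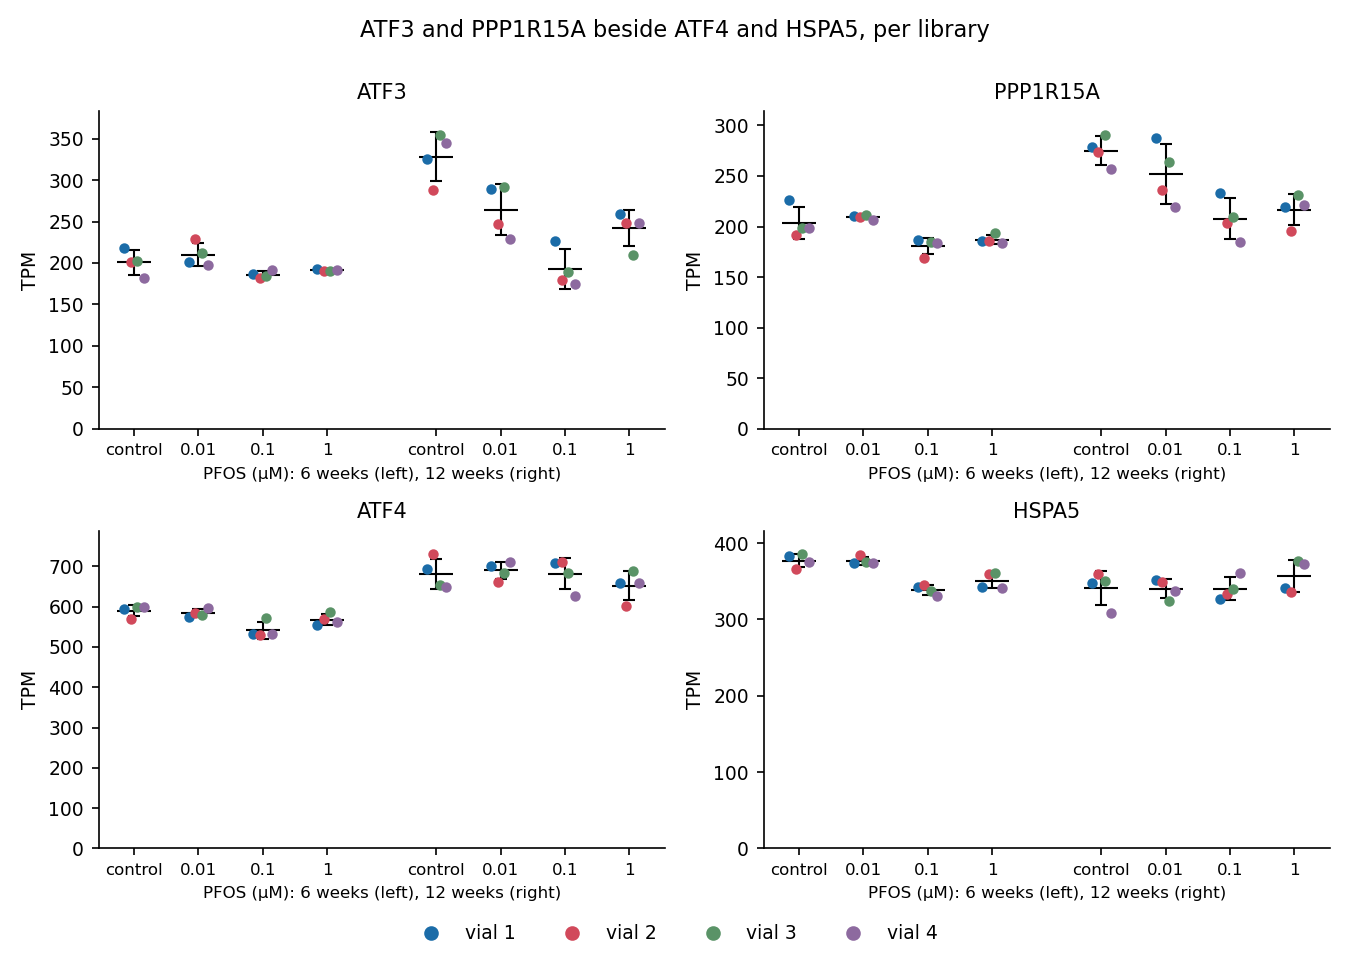
TPM (vertical axes, from 0) of ATF3, PPP1R15A, ATF4 and HSPA5 in each of the 32 libraries, by PFOS concentration and week. Points are libraries colored by vial, and black marks give the mean and SD of 4 libraries. ATF3 and PPP1R15A stand highest in the 12-week control, with ATF3 at 174 to 227 TPM at 0.1 µM against 289 to 355 TPM in the control, while ATF4 and HSPA5 overlap the control in every 12-week group.

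ATF4 and the 9 chaperones and folding enzymes did not pass by edgeR at 12 weeks. ATF4 was at 694, 730, 654 and 649 TPM in the control libraries and at 707, 710, 684 and 626 TPM at 0.1 µM, so the groups overlapped. Its log2 fold change was -0.01 (SE 0.06, edgeR adjusted p 0.925) at 0.1 µM and -0.11 (SE 0.06, edgeR adjusted p 0.591) at 1 µM, where the libraries were at 658, 602, 688 and 659 TPM. HSPA5, the main Hsp70 chaperone of the ER, was at 348, 359, 350 and 308 TPM in the control and at 327, 333, 340 and 361 TPM at 0.1 µM, with a log2 fold change of -0.04 (SE 0.05, edgeR adjusted p 0.780). At 1 µM HSPA5 was at 341, 336, 376 and 372 TPM, and its log2 fold change was -0.00 (SE 0.05, edgeR adjusted p 0.993). HSP90B1, the ER Hsp90 chaperone, was at 799, 821, 757 and 739 TPM in the control, at 768, 787, 796 and 806 TPM at 0.1 µM and at 772, 738, 852 and 817 TPM at 1 µM. These HSP90B1 ranges overlapped, with log2 fold changes of -0.02 and -0.04 (SE 0.05 for both). DNAJB9, an ER co-chaperone induced by XBP1, was the only one of the 9 at an unadjusted p under 0.05, at 0.1 and at 1 µM. It was at 12.76, 12.72, 14.65 and 14.15 TPM in the control and at 11.25, 10.74, 12.01 and 9.28 TPM at 0.1 µM, without overlap. Its log2 fold change there was -0.36 (SE 0.10, edgeR adjusted p 0.0737), and it passed with DESeq2 (adjusted p 0.0396) and in the edgeR fit of all 32 libraries (adjusted p 0.0163) but not with limma. At 1 µM the DNAJB9 libraries overlapped the control (log2 fold change -0.27, SE 0.10, edgeR adjusted p 0.372).

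The difference between ATF3 and these genes was tested directly as a ratio within each library, on log2(CPM + 1) values, where CPM is the count of a gene scaled to a common library total. In the 12-week control, log2(ATF3/ATF4) averaged -0.58 ± 0.21 (SD, n = 4), compared with -1.36 ± 0.14 at 0.1 µM. The difference was -0.79 on the log2 scale and the ratio was lower in 4 of 4 vials (exact two-sided permutation test, p = 0.0286, adjusted p 0.114 over 12 ratio tests). The ratio to HSPA5 differed by -0.77 at 0.1 µM, also lower in 4 of 4 vials, with the same exact permutation p. With 4 against 4 libraries 0.0286 is the smallest p this test can give, so the adjustment over 12 tests could not have left one below 0.05 unless more of them had reached it.

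At 1 µM the ratio of ATF3 to HSPA5 differed by -0.50 and was lower in 4 of 4 vials (exact permutation p = 0.0286, adjusted p 0.114). The ratio to ATF4 differed by -0.39 and was lower in 3 of 4 vials (exact permutation p = 0.0571, adjusted p 0.171). At 0.01 µM the differences were -0.34 and -0.31 and both exact permutation p-values were 0.0857. At 6 weeks no ratio differed by more than 0.08 on the log2 scale, and the exact permutation p-values were 0.314 or higher.

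Of the remaining members, DDIT3, XBP1, CEBPB and DDIT4 did not pass with edgeR in the 16 libraries of 12 weeks but passed at 0.1 µM under at least 1 alternative. DDIT3, the pro-apoptotic factor CHOP, was at 41.1, 50.4, 46.8 and 42.5 TPM in the control and at 39.9, 37.9, 36.8 and 34.0 TPM at 0.1 µM, without overlap, with a log2 fold change of -0.31 (SE 0.09, edgeR adjusted p 0.0823). At 1 µM DDIT3 was at 35.2, 44.2, 36.5 and 37.5 TPM, which overlapped the control (log2 fold change -0.28, SE 0.08, edgeR adjusted p 0.252). XBP1, the target of IRE1, was at 177, 177, 192 and 187 TPM in the control and at 173, 163, 160 and 159 TPM at 0.1 µM (log2 fold change -0.20, SE 0.05, edgeR adjusted p 0.0647). CEBPB, a transcription factor that can pair with ATF4, was at 115, 116, 130 and 124 TPM in the control and at 120, 95.7, 92.2 and 80.7 TPM at 0.1 µM, with vial 1 overlapping the control (log2 fold change -0.36, SE 0.10, edgeR adjusted p 0.100). The mTORC1 inhibitor DDIT4 had log2 fold changes of -0.49 (SE 0.14, edgeR adjusted p 0.136) at 0.1 µM and -0.58 (SE 0.14, edgeR adjusted p 0.166) at 1 µM. At 0.1 µM, XBP1 and CEBPB passed with DESeq2 (adjusted p 0.0198 and 0.0202). In the edgeR fit of all 32 libraries XBP1, DDIT4, DDIT3 and CEBPB passed (adjusted p 0.00686, 0.0132, 0.0236 and 0.0313), and the same 4 genes passed without vial 1 (edgeR adjusted p 0.00438 to 0.0370). At 1 µM, DDIT4 passed with DESeq2 (adjusted p 0.0337), in the edgeR fit of all 32 libraries (0.00738), on the 8 libraries compared (0.000602) and without vial 1 (0.0257).

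The pseudokinase TRIB3, a target of ATF4 and DDIT3 that feeds back on ATF4, was at 35.9, 33.1, 36.2 and 37.4 TPM in the 12-week control and at 37.7, 31.9, 31.8 and 33.4 TPM at 0.1 µM, with overlapping ranges (log2 fold change -0.09, SE 0.06). ASNS, a widely used readout of ATF4 activity, was at 42.7, 45.5, 40.5 and 45.9 TPM in the control, at 45.6, 43.8, 43.5 and 43.3 TPM at 0.1 µM and at 42.9, 40.4, 40.2 and 41.1 TPM at 1 µM. Its log2 fold change was -0.04 (SE 0.06) at 0.1 µM and -0.17 (SE 0.06, edgeR adjusted p 0.325) at 1 µM. None of the 6 genes of amino acid and one-carbon synthesis and none of the 4 amino acid transporters passed at 12 weeks by edgeR, DESeq2 or limma. At an unadjusted p under 0.05, 1 synthesis gene was lower at 0.1 µM and 3 were lower at 1 µM, with no share of all genes given for that level.

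After 6 weeks, a different group of members passed. At 0.1 µM PFOS, 9 of 37 members passed, where 4.24% of all 12836 genes tested passed, and 8 of the 9 were lower. They comprised 3 of the 4 amino acid transporters (SLC7A5, SLC3A2 and SLC1A5), together with HERPUD1, PPP1R15A, HSPA5, XBP1 and the mitochondrial serine hydroxymethyltransferase gene SHMT2, while ERN1 was higher. The median log2 change of the members was -0.04, and 15 members had an unadjusted p under 0.05, of which 13 were lower. The share of all genes at that unadjusted level is not given here, and it cannot be below the 4.24% that passed. ATF3 did not pass (log2 fold change -0.08, SE 0.05, edgeR adjusted p 0.328), with 218, 201, 202 and 182 TPM in the control libraries and 186, 182, 185 and 191 TPM at 0.1 µM. ATF4 was at 593, 570, 598 and 599 TPM in the control and at 532, 530, 572 and 531 TPM at 0.1 µM, with a log2 fold change of -0.09 (SE 0.03, edgeR adjusted p 0.0872, DESeq2 adjusted p 0.0377, limma adjusted p 0.0487).

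SLC7A5 (LAT1), which carries large neutral amino acids in a heterodimer with SLC3A2 (CD98), was at 86.4, 69.5, 88.7 and 90.6 TPM in the 6-week control and at 54.7, 59.3, 59.6 and 58.5 TPM at 0.1 µM. The groups did not overlap, and the change of the mean was -30.8% (log2 fold change -0.51, SE 0.09, edgeR adjusted p 0.0131). SLC3A2 was at 190, 178, 199 and 192 TPM in the control and at 160, 158, 153 and 149 TPM at 0.1 µM, a log2 fold change of -0.26 (SE 0.04, edgeR adjusted p 0.00174). The glutamine transporter SLC1A5 (ASCT2) was at 100, 103, 107 and 112 TPM in the control and at 89.3, 95.8, 95.6 and 90.0 TPM at 0.1 µM, a log2 fold change of -0.18 (SE 0.04, edgeR adjusted p 0.00978). SLC7A11, the cystine transporter that shares SLC3A2, had a log2 fold change of -0.43 (SE 0.19) and did not pass (edgeR adjusted p 0.220).

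Among the ER genes, HERPUD1, HSPA5 and XBP1 were lower at 0.1 µM. HERPUD1 was at 66.8, 60.5, 65.6 and 64.5 TPM in the control and at 57.2, 53.8, 56.1 and 52.7 TPM at 0.1 µM (log2 fold change -0.21, SE 0.04, edgeR adjusted p 0.00580). HSPA5 was at 383, 366, 385 and 375 TPM in the control and at 342, 345, 337 and 331 TPM at 0.1 µM (log2 fold change -0.13, SE 0.03, edgeR adjusted p 0.0171). Every exposed library of both genes was below every control library. HSP90B1 did not pass at 0.1 µM (log2 fold change 0.03, SE 0.03), with 756, 749, 761 and 731 TPM in the control and 767, 772, 756 and 726 TPM when exposed, so the chaperones did not all move together. The folding enzyme gene PDIA4 was lower with DESeq2 (log2 fold change -0.08, adjusted p 0.0324) and did not pass with edgeR or limma. XBP1 was at 174, 177, 170 and 170 TPM in the control and at 157, 153, 163 and 153 TPM at 0.1 µM (log2 fold change -0.12, SE 0.03, edgeR adjusted p 0.0483).

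PPP1R15A was at 226, 191, 198 and 198 TPM in the 6-week control and at 186, 169, 185 and 183 TPM at 0.1 µM (log2 fold change -0.15, SE 0.04, edgeR adjusted p 0.0452). SHMT2 was at 132, 124, 133 and 134 TPM in the control and at 116, 123, 123 and 113 TPM at 0.1 µM (log2 fold change -0.12, SE 0.03, edgeR adjusted p 0.0432). ERN1 was at 3.77, 3.72, 3.71 and 3.19 TPM in the control and at 4.55, 4.50, 4.16 and 3.89 TPM at 0.1 µM (log2 fold change 0.27, SE 0.07, edgeR adjusted p 0.0266). None of these groups overlapped, and the changes of the means were -11.2%, -9.08% and 18.8%. TRIB3 (28.7 to 34.5 TPM in the control, 27.8 to 29.6 TPM at 0.1 µM), ASNS (21.8 to 25.6 and 21.2 to 24.2 TPM) and DDIT3 (33.6 to 36.2 and 30.9 to 34.9 TPM) overlapped between the groups.

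**Figure D2:**
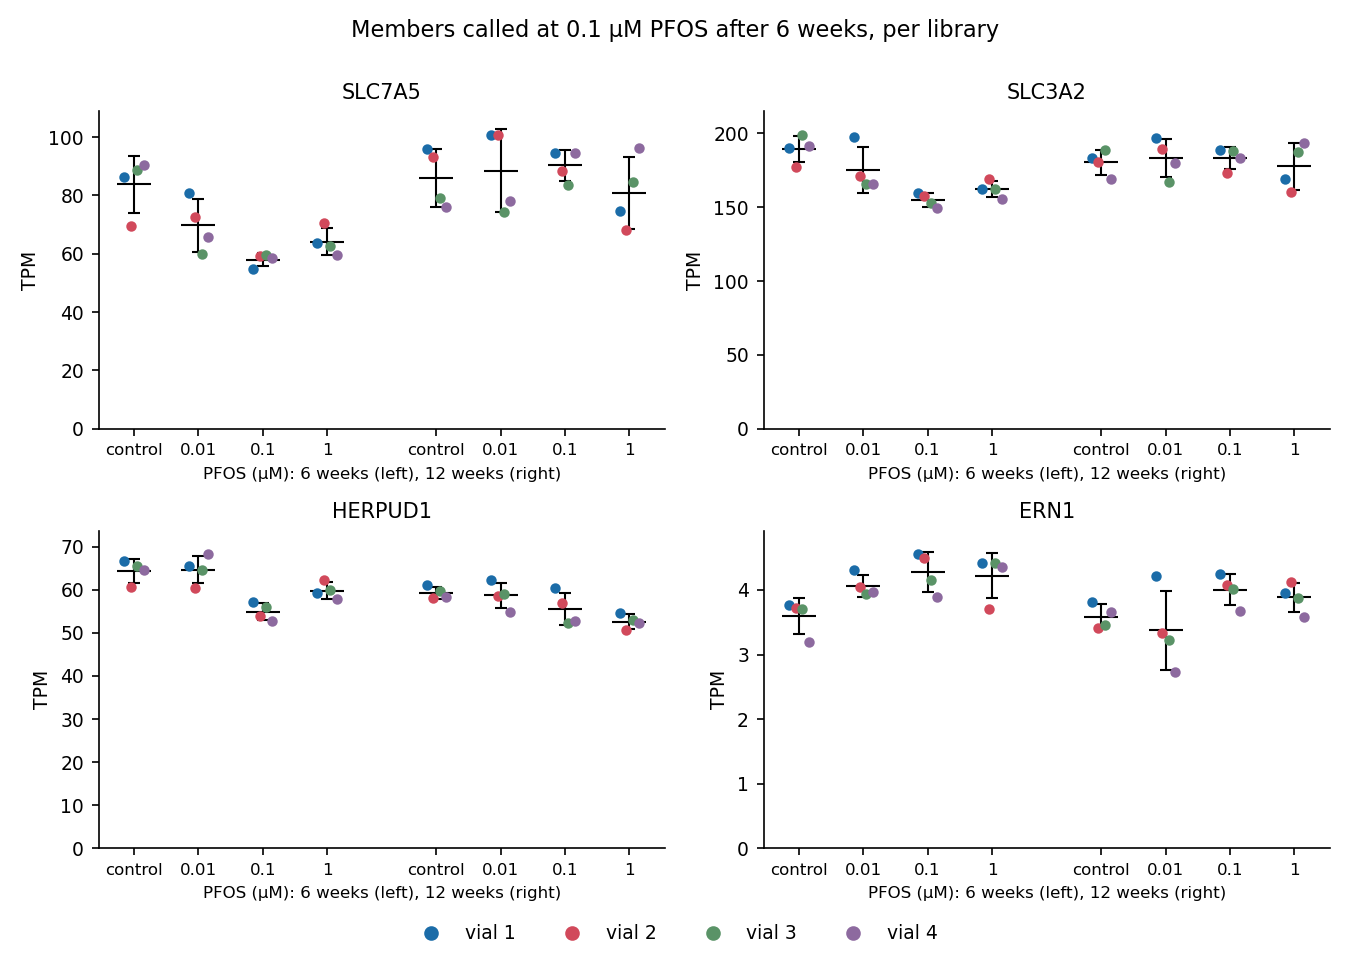
TPM (vertical axes, from 0) of SLC7A5, SLC3A2, HERPUD1 and ERN1 in each library, by PFOS concentration and week, with points colored by vial and black marks for the mean and SD of 4 libraries. At 6 weeks the 0.1 µM libraries of SLC7A5 (54.7 to 59.6 TPM) lie below the control libraries (69.5 to 90.6 TPM), and at 12 weeks the same groups overlap.

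Each of the 9 calls at 6 weeks was lost without vial 3, which left 3 libraries a group (edgeR adjusted p 0.0730 to 0.191), while the log2 fold changes kept their direction. They were then -0.48 for SLC7A5, -0.23 for SLC3A2, -0.20 for HERPUD1, -0.19 for SLC1A5 and 0.30 for ERN1, and -0.11 to -0.16 for HSPA5, SHMT2, XBP1 and PPP1R15A. In the edgeR fit of all 32 libraries, ERN1, HSPA5, PPP1R15A, SHMT2 and XBP1 were lost (adjusted p 0.0917 to 0.254). ERN1, PPP1R15A and SHMT2 were lost with limma (adjusted p 0.0951, 0.0525 and 0.0540). PPP1R15A, SHMT2 and XBP1 were lost with edgeR on only the 8 libraries compared (adjusted p 0.0584 to 0.102). SHMT2 and XBP1 were lost with no filter on low counts, and XBP1 with at least 10 counts in every library (edgeR). The loss was not limited to vial 3. Without vials 1, 2, 3 or 4 the number of members called ranged from 0 to 7, with 3 without vial 1 and 1 without vial 4. PPP1R15A and XBP1 were lost whichever vial was left out. The share of counts from mitochondrial genes was 4.80 to 5.04% in the control libraries and 5.52 to 6.71% at 0.1 µM. At 1 µM after 6 weeks it was 5.56 to 6.77%. That share and the liver transcripts, of which 4 of 4 tested were higher at 0.1 µM, moved with the same comparison. The same 4 liver transcripts were also higher at 1 µM after 6 weeks, so neither shift was particular to 0.1 µM. The part of the mitochondrial share and of the liver transcripts in the member differences was not tested.

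At 1 µM after 6 weeks, edgeR called 0 of 37 members, where 0.280% of all genes passed, with 7 members at an unadjusted p under 0.05. DESeq2 called 3 members (SLC7A5, SLC3A2 and SLC1A5) and limma on log2(TPM + 1) called those and SHMT2. The 0.280% is the share for edgeR after adjustment. Shares of all genes for DESeq2, for limma and at the unadjusted level are not given here, so those counts of members have no background. With the vial as a block in the edgeR fit, DDIT3 and ERN1 passed (adjusted p 0.0417 for both), with log2 fold changes of 0.29 and 0.29. SLC7A5 was at 63.7, 70.6, 62.6 and 59.7 TPM, and its log2 fold change was -0.33 (SE 0.09, edgeR adjusted p 0.135). DDIT3 was at 40.7, 44.0, 43.6 and 35.6 TPM against 33.6, 36.2, 34.4 and 34.9 TPM in the control, with a log2 fold change of 0.29 (SE 0.07, edgeR adjusted p 0.0819). ATF3 was at 192, 190, 191 and 191 TPM (log2 fold change -0.01, SE 0.05).

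At 0.01 µM after 6 weeks, edgeR called 0 members and 0% of all genes, and an unadjusted p under 0.05 was reached by 5 members and 1232 genes. DESeq2 called 0 members and 1 gene, and limma called 0 of both. The largest of the 5 by size was DDIT3, at 37.9, 40.9, 47.6 and 43.4 TPM, above every control library, with a log2 fold change of 0.30 (SE 0.07, edgeR adjusted p 0.280). SLC7A5 had a log2 fold change of -0.25 (SE 0.09, edgeR adjusted p 0.462). ATF3 was at 201, 229, 212 and 198 TPM at 0.01 µM (log2 fold change 0.08, SE 0.05).

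**Figure D3:**
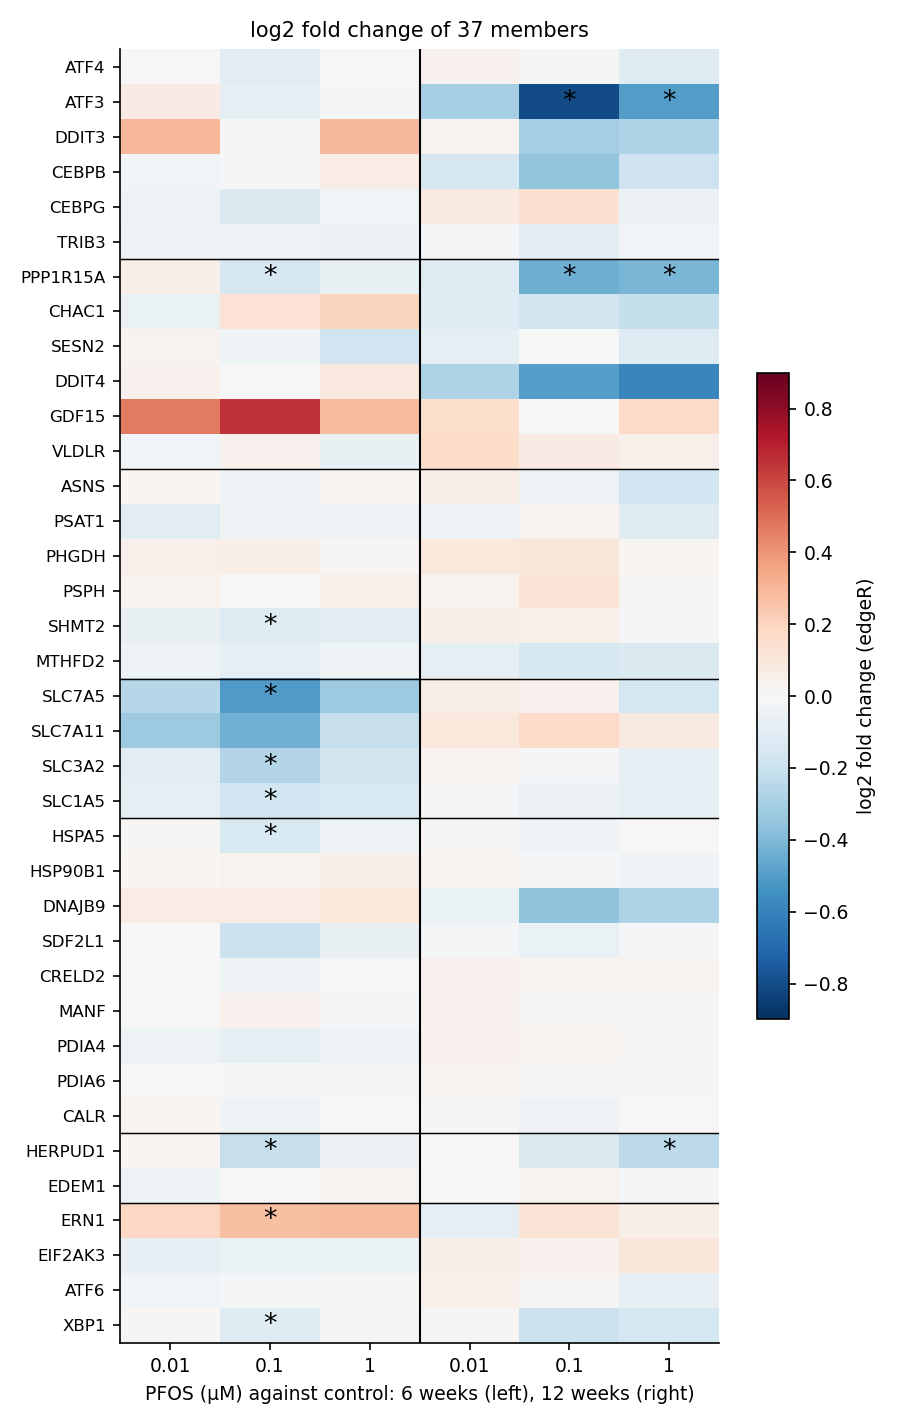
log2 fold changes (color scale, edgeR) of the 37 members, grouped by role with horizontal lines, for 0.01, 0.1 and 1 µM PFOS against the control at 6 weeks (left) and 12 weeks (right). Stars mark an adjusted p at or under 0.05, of which there are 9 at 0.1 µM after 6 weeks, 2 at 0.1 µM and 3 at 1 µM after 12 weeks. The strongest blue cell is ATF3 at 0.1 µM after 12 weeks (-0.80), and the red GDF15 cells rest on 7 to 26 counts.

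More members differed between the 2 times than between PFOS and control. In the control cultures, 21 of 37 members differed between 12 and 6 weeks, where 36.6% of all 12988 genes tested did, and 18 of the 21 were higher at 12 weeks. The median log2 change was 0.11 over the members and 0.00 over all genes. Of the 6 transcription factors and regulators 5 were higher (all but CEBPB), of the 6 genes of amino acid and one-carbon synthesis 5 were higher (all but PSPH), and of the 9 chaperones and folding enzymes 2 were higher (HSP90B1 and PDIA4). Time is confounded with passage number and with anything else that differed between the 2 collections, and these cannot be told apart.

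ASNS rose most, from 23.3, 21.8, 25.6 and 23.5 TPM at 6 weeks to 42.7, 45.5, 40.5 and 45.9 TPM at 12 weeks, with a log2 fold change of 0.94 (SE 0.06, edgeR adjusted p 1.71e-14). ATF3 followed, from 182 to 218 TPM at 6 weeks to 289 to 355 TPM at 12 weeks (log2 fold change 0.78, SE 0.08, edgeR adjusted p 1.53e-08). The glutathione-degrading enzyme gene CHAC1 (log2 fold change 0.64, SE 0.11) and the serine synthesis gene PSAT1 (0.53, SE 0.05) came next. ATF4 rose by less (0.26, SE 0.04, edgeR adjusted p 2.83e-05), and HSPA5 did not pass (-0.07, SE 0.04, edgeR adjusted p 0.196). The 3 members that fell were SLC7A11 (-0.67, SE 0.15), the lipoprotein receptor gene VLDLR (-0.30, SE 0.11) and the PERK gene EIF2AK3 (-0.15, SE 0.05). VLDLR and EIF2AK3 each lost the call in 4 of 12 alternatives, and the 4 largest rises and SLC7A11 kept it in all 12 alternatives tried, apart from a requirement of a 2-fold change, which no member met.

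**Figure D4:**
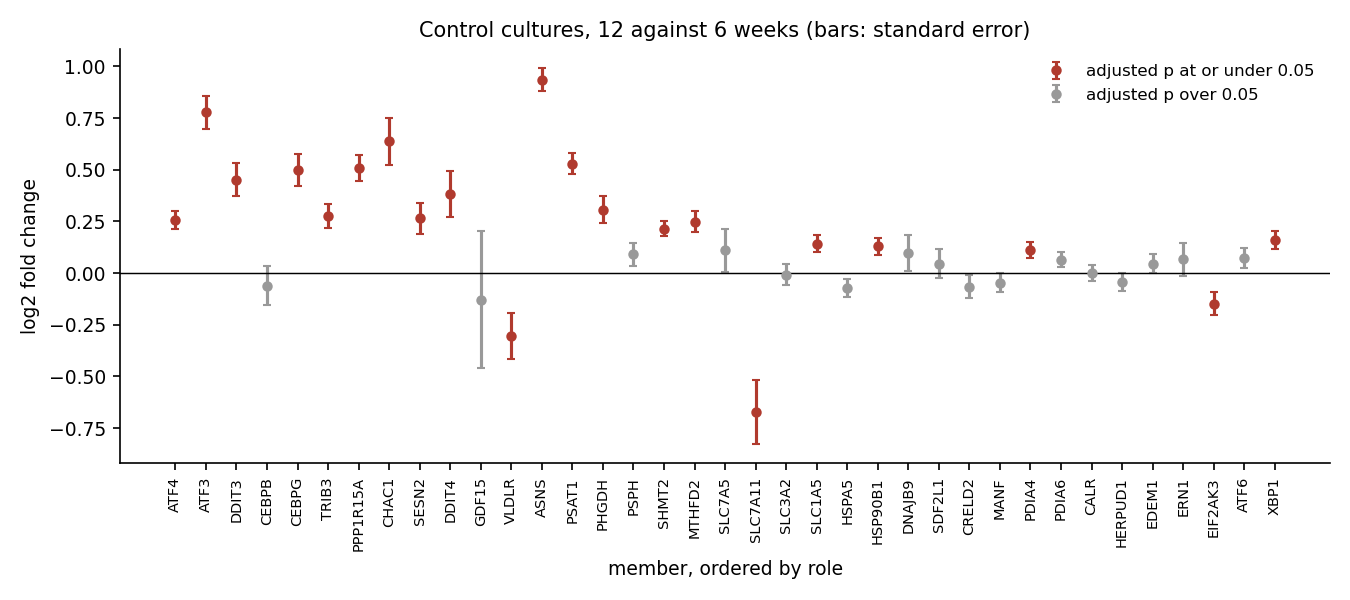
log2 fold change (vertical axis, edgeR) of each of the 37 members between 12 and 6 weeks in the control cultures, with members ordered by role on the horizontal axis. Bars give the standard error, and red points have an adjusted p at or under 0.05. ASNS (0.94) and ATF3 (0.78) stand highest, SLC7A11 (-0.67) lowest, and most chaperones lie near 0.

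The exposed cultures differed between the times in similar numbers of members, namely 20 at 0.01 µM (42.7% of all genes), 20 at 0.1 µM (40.3%) and 17 at 1 µM (30.0%). The number higher at 12 weeks was 19, 17 and 14, respectively. In the control and the 3 exposed groups alike, 11 members were higher at 12 weeks (ASNS, ATF4, CEBPG, MTHFD2, PDIA4, PHGDH, PPP1R15A, PSAT1, SHMT2, SLC1A5 and TRIB3). The share of all genes that were higher in every group was not counted, so the 11 cannot be called particular to the set. ASNS differed by 0.98 at 0.01 µM, 0.93 at 0.1 µM and 0.75 at 1 µM on the log2 scale (SE 0.06 for each), and ATF4 by 0.31, 0.34 and 0.15 (SE 0.05 for each). ATF3 differed by 0.41 at 0.01 µM, 0.06 at 0.1 µM and 0.29 at 1 µM (SE 0.08 for each), and at 0.1 µM it did not pass (edgeR adjusted p 0.580). At 0.1 µM the mean of ATF3 was 186 ± 3.91 TPM at 6 weeks and 193 ± 23.9 TPM at 12 weeks (SD, n = 4), compared with 201 ± 14.7 and 328 ± 29.1 TPM in the control.

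Whether the PFOS effect differed between 12 and 6 weeks was tested as an interaction over all 32 libraries. ATF3 was the only member that passed at 0.1 µM, where 0.208% of all genes passed, with a difference of -0.72 on the log2 scale (SE 0.11, edgeR adjusted p 0.00249). DDIT3 was the only member that passed with edgeR at 1 µM, where 0.123% passed, with a difference of -0.57 (SE 0.12, edgeR adjusted p 0.0266). Its fold change was 0.29 at 6 weeks and -0.28 at 12 weeks, neither of which passed alone. ATF3 had an interaction of -0.49 (SE 0.11) and DDIT4 of -0.67 (SE 0.16) at 1 µM, which did not pass with edgeR (adjusted p 0.0983 for both). They passed with DESeq2 (adjusted p 0.00484 for ATF3 and 0.0125 for DDIT4) and with limma (0.0490 and 0.0433). PPP1R15A passed at 1 µM with the vial as a block (log2 difference -0.34, edgeR adjusted p 0.0271) and with DESeq2 (0.0253), and SHMT2 with limma (0.0410). At 0.01 µM edgeR called 0 members and 0% of all genes, while 5 members and 972 genes had an unadjusted p under 0.05, and DESeq2 called 0 members and 2 genes, and limma 0 of both.

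The ATF3 interaction at 0.1 µM was lost without vial 4 (difference -0.58, edgeR adjusted p 0.336). That of DDIT3 at 1 µM was lost without any 1 vial (differences -0.48 to -0.61, edgeR adjusted p 0.0511 to 0.378) and without the 12-week control library of vial 3 (-0.55, edgeR adjusted p 0.0662). The transporters SLC7A5 (0.55, SE 0.15, edgeR adjusted p 0.100) and SLC3A2 (0.26, SE 0.07, edgeR adjusted p 0.102) had positive interactions at 0.1 µM that did not pass with edgeR and passed with DESeq2 (adjusted p 0.0264 and 0.0452), as did SHMT2 (0.16, DESeq2 adjusted p 0.0414).

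Further genes of the same pathways, listed apart from the 37 members, were counted in the same fits. Of 32 other integrated stress response genes, 5 were lower at 0.1 µM after 6 weeks, where 4.24% of all genes passed in either direction, all of them aminoacyl-tRNA synthetase genes, which load amino acids onto tRNA (GARS1, SARS1, IARS1, MARS1 and YARS1, with log2 fold changes of -0.15, -0.16, -0.12, -0.14 and -0.15). At 12 weeks edgeR, DESeq2 and limma each called 0 of the 32 at any concentration, with 2 to 4 at an unadjusted p under 0.05. Of 33 other unfolded protein response genes, the transcription factor gene CREB3L2 was higher (log2 fold change 0.15) and the disulfide isomerase gene TXNDC5 was lower (-0.11) at 0.1 µM after 6 weeks, and at 12 weeks the same 3 tools called 0, with 3 to 4 at an unadjusted p under 0.05. Between the times in the control cultures, where 36.6% of all genes passed, 22 of the 32 integrated stress response genes passed, with 16 higher and 6 lower at 12 weeks. Of the 33 unfolded protein response genes 10 passed, with 3 higher and 7 lower, a share below that of all genes.

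Because ATF3 is also a rapid-response gene, 17 immediate early genes were examined beside it. At 0.1 µM after 12 weeks, where 1.07% of all genes tested passed in either direction, 5 of 17 were lower and 0 were higher by edgeR. The 5 were FOSB (-0.91, SE 0.18), KLF4 (-0.97, SE 0.19), IER3 (-0.81, SE 0.16), JUN (-0.59, SE 0.10) and the phosphatase gene DUSP1 (-0.45, SE 0.09), where the values are log2 fold changes. The median over the 17 genes was -0.45, and 10 had an unadjusted p under 0.05, all lower. For that unadjusted level the share of all genes is not given here. FOS (-0.36, SE 0.18, edgeR adjusted p 0.362) and EGR1 (-0.20, SE 0.23, edgeR adjusted p 0.723), which encode the best-known members, did not pass. JUN was at 92.8, 92.2, 78.6 and 72.3 TPM in the control and at 59.4, 53.1, 61.9 and 54.6 TPM at 0.1 µM, without overlap.

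At 1 µM after 12 weeks, where edgeR called 0.220% of all genes, it called 0 of 17 immediate early genes, limma 0 and DESeq2 2. At an unadjusted p under 0.05 there were 10, all lower, and the median log2 change was -0.43. Shares of all genes for limma, for DESeq2 and at the unadjusted level are not given here. In the control cultures, where 36.6% of all genes passed in either direction, 10 of the 17 were higher at 12 than at 6 weeks and 0 were lower. The higher genes included EGR1 (1.31, SE 0.21) and FOS (0.83, SE 0.15) on the log2 scale. The interaction at 0.1 µM, where 0.208% of all genes passed, was negative and passed for JUN (-0.78, SE 0.12), DUSP1 (-0.71, SE 0.12) and KLF6 (-0.31, SE 0.06). These comparisons share their control libraries with those of ATF3, and whether the immediate early genes and ATF3 had a common source was not tested.

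Finally, ATF3 was set against 6 genes across the 32 libraries after each library was centered on the mean of its group, which removes the group differences. None of the 6 correlations passed after adjustment (two-sided permutation tests within groups). The values were r = 0.42 with TRIB3 (rho 0.42, permutation p 0.0652, adjusted p 0.214) and r = -0.42 with HSPA5 (rho -0.35, permutation p 0.0713, adjusted p 0.214). With FOS r was 0.33, with EGR1 0.32, with ATF4 -0.15 and with DDIT3 0.00. With the vial as a block r was 0.08 with FOS, 0.20 with EGR1, -0.24 with ATF4 and 0.19 with DDIT3, compared with 0.39 with TRIB3 and -0.43 with HSPA5, and none passed after adjustment. Without the 2 libraries farthest from the median of ATF3, r was 0.23 with TRIB3 and -0.28 with HSPA5. Within the 12-week libraries alone r was 0.75 with TRIB3 (adjusted permutation p 0.0263) and 0.24 with FOS. With HSPA5 it was -0.62 (adjusted permutation p 0.0634), and the rank correlation rho of -0.66 passed (adjusted permutation p 0.0432). Within the 6-week libraries alone r was -0.26 with TRIB3, 0.45 with HSPA5 (adjusted permutation p 0.241), 0.69 with FOS (adjusted permutation p 0.0119) and 0.52 with EGR1 (adjusted permutation p 0.0493). The values of r differed in size or sign between the times, a difference that was not tested, and libraries of a vial and of a passage share their source.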

How the data were processed

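RNA of 32 HGrC1 libraries was sequenced from stranded poly(A) libraries on a DNBSEQ platform. The authors filtered the reads, aligned them to GRCh38.p14 with HISAT2 2.0.4 or to reference genes with Bowtie2 2.2.5, and quantified genes with RSEM 1.2.8, per the submitters' processing notes. They deposited RSEM expected counts, which are estimated and need not be whole, and TPM values, which RSEM scales to the same sum in every library. Their FPKM and normalized count tables hold the same measurements and were not used.

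Expected counts were rounded to whole numbers and tested with edgeR 4.0.16 (TMM, filterByExpr, robust quasi-likelihood fit, two-sided, Benjamini-Hochberg over all genes tested, adjusted p at or under 0.05) in R 4.3.3. PFOS was compared with the control in the 16 libraries of a time, and times and interactions were tested in all 32. Ratios used an exact permutation test on log2(CPM + 1), and TPM was used for levels without a test. Fold changes of TPM in the limma alternative are on the log2(TPM + 1) scale. The scripts were tested on simulated data. Alternatives were DESeq2 1.42.0, limma 3.58.1, RLE size factors, other filters, other sets of libraries, leaving out a vial and the vial as a block; leaving out the 12-week control library of vial 3 was added after seeing the data.

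The labels number the biological replicates of each group and do not name the vials. Equal numbers were taken as the same vial, because the study divided the cells of each vial between the treatments. Deviations of same-numbered libraries from their group means correlated at 0.0420 to 0.0803 at 6 weeks and -0.0819 to 0.150 at 12 weeks on average over 6 pairs of groups each. Correlations of this size do not settle whether equal numbers mark the same vial. The vials were frozen from 1 cell line, so p-values measure the spread between these cultures. The members and all gene lists were chosen with earlier results of these data known. Values per library or their ranges are given for ATF3, ATF4, DDIT3, TRIB3, ASNS, HSPA5, HSP90B1, XBP1 and every member called against the control. They are given for the comparisons described and not for every group. For time in culture the 4 largest rises and all falls called in the control are named. DNAJB9, CEBPB, DDIT4 and PDIA4 are named because they passed under an alternative, a choice made after their values were seen.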

Additional observations from a re-analysis of the deposited data

Results flagged for a closer look

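Of 120 combinations of a member and a group examined, 9 held a library that stood apart from the other 3 of its group by more than Dixon's 95% critical value, and chance alone flags about 1 in 20 such groups. ATF4 was highest in vial 3 at 0.1 µM after 6 weeks (571.57 TPM), TRIB3 in vial 4 of the 6-week control (34.54 TPM), HSPA5 in vial 2 at 0.01 µM after 6 weeks (384.4 TPM) and XBP1 in vial 3 at 0.01 µM after 12 weeks (193.68 TPM). PPP1R15A was lowest in vial 2 at 0.1 µM after 6 weeks (168.89 TPM), SHMT2 in vial 4 at 0.01 µM after 12 weeks (136.61 TPM) and SLC1A5 in vial 2 at 1 µM after 12 weeks (106.54 TPM). ERN1 was lowest in vial 4 of the 6-week control (3.19 TPM) and in vial 2 at 1 µM after 6 weeks (3.7 TPM). No library of ATF3 was among them.

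The PFOS effect differed between the 2 times for 2 members by the interaction test of edgeR. For ATF3 at 0.1 µM the effect at 12 weeks minus that at 6 weeks was -0.72 on the log2 scale, and for DDIT3 at 1 µM it was -0.57.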

How the results depend on the processing

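The number of members called (of 37) changed by more than 1.5 times as follows. At 0.1 µM after 6 weeks it was 9, and 4 in the fit of all 32 libraries. At 1 µM after 6 weeks it was 0, and 3 with DESeq2, 1 with no filter on low counts, 2 with the replicate block and 4 with limma. At 0.1 µM after 12 weeks it was 2, and 5 with DESeq2 and 7 in the fit of all 32 libraries. At 1 µM after 12 weeks it was 3, and 1 with no filter, 0 with limma and 0 without the 12-week control library of vial 3. For the interaction at 0.1 µM it was 1, and 4 with DESeq2. For the interaction at 1 µM it was 1, and 3 with DESeq2, 2 with the replicate block, 4 with limma and 0 without that control library. A requirement of a 2-fold change left 0 members in every comparison, including the 4 between the times. Leaving out 1 vial at a time gave 0 to 7 (0.1 µM) and 0 to 3 (1 µM) at 6 weeks, 1 to 6 and 0 to 4 at 12 weeks, and 0 to 3 and 0 to 2 for the interactions. With the vial as a block, 3 further calls were gained (DDIT3 at 0.01 µM, VLDLR at 0.1 µM, SLC7A11 at 1 µM) and 1 lost (PDIA6 at 0.01 µM) between the times, and no other call of a member changed beyond DDIT3, ERN1 and PPP1R15A described above. No called result reversed its direction. None of the 84 alternative values of the ATF3 ratios passed, which says nothing about stability. Without 1 vial, 3 against 3 libraries remained, where the smallest exact permutation p is 0.1. With sign flips within vials the smallest p is 0.125. The other alternatives kept 4 against 4 libraries and the adjustment over 12 tests. The correlation of ATF3 with TRIB3 passed in the 12-week libraries (0.75) and ranged from 0.20 to 0.71 without 1 vial, with 0.71 without vial 4, and those with FOS (0.69) and EGR1 (0.52) passed in the 6-week libraries. The share of all genes called under each alternative is not given beside these counts. Where an alternative moved a count, the cause was not tested. With 4 libraries a group, the mean TPM of members called at 6 weeks differed by -30.8 to 18.8%, while GDF15 was measured at only 7 to 26 counts a library.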
